A study of Mus musculus with 10 samples.

Results

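Parthenogenetic embryonic stem cells (pESC-B) were set against female embryonic stem cells (fESC) on 4 of the 10 mouse BeadChip arrays of the series, 2 for each line. The pESC-B cells were sorted for the surface antigen SSEA-1. The fESC cells carry the label OG2 and no mention of a sort, and their sample titles add a B that their descriptions lack. The other groups, with 2 arrays each, entered the fit alone: piPS-2F, pluripotent cells induced by overexpressing Oct4 and Klf4 in neural stem cells of parthenogenetic origin, pNSC, neural stem cells of that origin, and fNSC, neural stem cells labelled female. Each line is labelled as a single source measured in duplicate, no label names separate cultures or animals, and every p-value therefore measures only the spread between duplicate arrays, which may be technical. The arrays were compared by label alone, and a probe was kept when both arrays of at least 1 line had it detected (detection p below 0.01). This left 11263 of 25697 probes, of which 8817 were detected on all 4 arrays, 1653 were kept through pESC-B alone and 793 through fESC alone. The kept probes with a symbol stood for 7793 genes, each described by its brightest kept probe unless stated.

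A parthenogenetic embryo develops from an egg with no sperm genome, so that genes expressed only from the paternal copy lack their active copy and genes expressed from the maternal copy can have a pair of them. Mouse embryonic stem cells hold a pluripotent state through a network of transcription factors around Pou5f1, Sox2 and Nanog, which LIF, WNT, BMP and FGF signals tune towards self-renewal or towards the primed state of the later epiblast. A small and changing fraction of such cultures enters a state that resembles the embryo at the 2-cell stage, marked by Zscan4 and other genes that are otherwise silent.

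All signals are on the log2 scale after background correction and quantile normalization of the 10 arrays. The pESC-B arrays were dimmer than the fESC arrays as deposited, with mean intensities of 326.6 and 287.0 in pESC-B, against 495.0 and 476.2 in fESC, yet more probes were detected on them (11159 and 11108 in pESC-B, against 10252 and 9938 in fESC). Brightness and line cannot be told apart in these 4 arrays. Over the 11263 kept probes, duplicates correlated at 0.989 in pESC-B and 0.990 in fESC, and the lines at 0.841 to 0.848. The 10 embryonic stem cell markers were detected on both arrays of both lines. Of 15 feeder fibroblast markers with a probe, 8 were detected in each line. The linear signal of the 15 summed to 3423 and 3488 in pESC-B, against 6459 and 5961 in fESC. The brightest, Acta2, weighs most in this sum, with 11.04 and 10.98 in pESC-B and 12.20 and 12.06 in fESC. Of 9 kept markers 2 were called lower and none higher, and the median difference over the 15 was -0.37. Neural progenitor markers summed to 3204 and 3489 in pESC-B and to 995 and 1066 in fESC. Olig1 and Slc1a3 weigh most in this sum, and the median difference over the 9 markers with a probe was 0.1. The detected ones were Olig1, Slc1a3 and Nes in both lines, while Pax6, Fabp7, Gfap and Sox1 were detected in neither line. Extraembryonic endoderm markers summed to 1365 and 1205 in pESC-B and to 947 and 1036 in fESC, with Afp, Ttr, Foxa2 and Sox17 undetected in both. Their median difference was 0.04, and of 6 kept 1 was called higher and 1 lower. The part of these markers in the results below was not tested.

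The lines differed widely. With limma, 2415 of 7793 genes (31%) were called, at an adjusted p under 0.05 and at least a 2-fold difference, 1293 higher (16.6%) and 1122 lower (14.4%) in pESC-B. The median difference over all genes was 0.21, and differences are given against 0. Measured against that median, 2243 genes were called and 37.2% of the calls were higher in pESC-B, in place of 53.5%.

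The genes of the 2-cell-like state gave some of the lowest values in pESC-B. Zscan4c, a zinc finger gene of 2-cell embryos and of rare stem cells that is tied to telomere lengthening, had signals of 4.72 and 4.36 in pESC-B, against 11.25 and 10.92 in fESC. Tcstv3, another gene of the 2-cell stage, had 4.81 and 4.39 in pESC-B and 10.80 and 10.36 in fESC. Both were detected on no pESC-B array and were bright on both fESC arrays, so that only a lower bound of the fold can be given. It set the lowest signal of a detected probe against the mean of fESC, and Zscan4c was at least 47.1-fold and Tcstv3 at least 33.2-fold lower in pESC-B. Both passed the filter through fESC alone, which set their direction in advance, so no p-value is given for them. The same held for Tcstv1 (at least 12.7-fold), for Pramel7, a member of a family of leucine-rich proteins active in early embryos (at least 8.56-fold), and for Pramel31 (at least 5.69-fold). Gm5662, AF067061 and Rpl39l, a copy of a ribosomal protein gene, were at least 13.2-fold, 14.1-fold and 12.6-fold lower. Gm20767 was at least 7.15-fold lower. Nearer to background, Tmem92 was at least 2.87-fold, Arg2, an arginase gene, at least 2.19-fold and Tdpoz1 at least 2.12-fold lower. Tdpoz4 and the X-linked Rnf128 were at least 1.43-fold and 1.41-fold lower, and both calls were lost with an offset of 50. That of Rnf128 was lost in 5 further settings, among them the fits without pESC-B replicate 1 and without fESC replicate 2. Tdpoz2, detected on 1 of 2 pESC-B arrays, had 5.55 and 4.82 in pESC-B and 6.94 and 6.82 in fESC.

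Of 55 two-cell-like genes listed, 37 had a probe and 21 were kept, 16 of them through 1 line alone. In pESC-B 16 were called lower and none higher, with a median difference of -2.22 over the 21. Genes kept through 1 line alone lean towards that line by the filter, and nothing is read from this count. Among the genes detected on all 4 arrays, the call lower in pESC-B was left to Zfp809 alone, a repressor of retroviral elements, which had 6.69 and 7.39 in pESC-B and 8.17 and 8.31 in fESC (-1.20 ± 0.23, SE). That call was lost without pESC-B replicate 1. Other members were not called. Piwil2, which acts in piRNA silencing, had 7.56 and 7.39 in pESC-B and 7.14 and 7.58 in fESC, with overlapping arrays. Eif1a, a translation factor gene, had 12.13 and 12.15 in pESC-B and 11.66 and 11.73 in fESC, a difference of 0.45 ± 0.14 that did not reach 2-fold, and Ddit4l differed by 0.46 ± 0.14. Pramel13 (-0.84 ± 0.24) and Tdrd7 (0.44 ± 0.21) were not called either.

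No kept two-cell-like gene had more than 1 kept probe, so none could be checked by a second. Zscan4c, the Tcstv, Tdpoz and Pramel genes have near-identical copies, and a probe's signal cannot be assigned to 1 copy. In RNA of a whole culture, fewer cells of a type and less RNA per cell cannot be told apart. In piPS-2F, set against the same fESC arrays in the same fit, Zscan4c differed by -1.35, Gm5662 by -1.50 and Pramel31 by -0.75, while Tcstv3 differed by -4.28, Pramel7 by -3.86 and Rpl39l by -4.40.

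**Figure D1:**
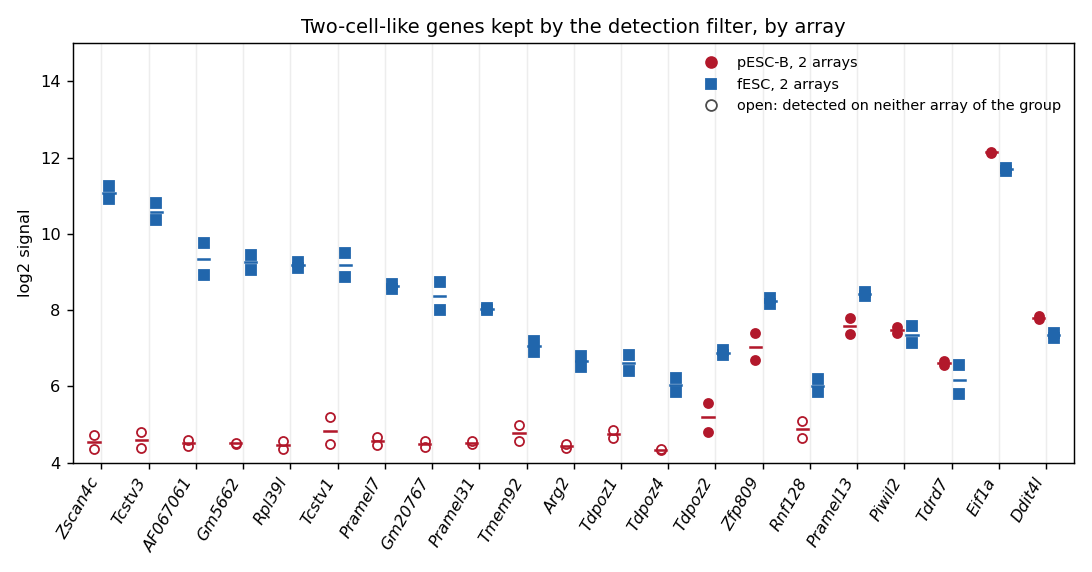
Log2 signal of the 21 kept two-cell-like genes on each pESC-B array (red circles, left) and each fESC array (blue squares, right), ordered by difference; short bars are means of 2 arrays and open symbols mark a line in which the probe was detected on neither array. Zscan4c lies at 4.72 and 4.36 in pESC-B against 11.25 and 10.92 in fESC, while Piwil2 overlaps between the lines.

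The sequence before the RefSeq start of Zscan4c is shown because this gene had the most negative difference of all. It is the stretch of 250 bases at chr7:11005495-11005744 of GRCm38.p6, plus strand, with the TATA letters TATAAA in capitals.
Zscan4c: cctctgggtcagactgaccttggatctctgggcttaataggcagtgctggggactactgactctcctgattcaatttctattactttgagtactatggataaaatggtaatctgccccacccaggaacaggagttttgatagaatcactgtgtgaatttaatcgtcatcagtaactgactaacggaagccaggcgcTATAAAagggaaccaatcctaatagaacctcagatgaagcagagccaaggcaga
TATAAA was searched on both strands and stood once here, 54 bases before the start. It was present in 13% of 27025 mouse promoter windows of this length, in 3 of the 12 kept two-cell-like genes that had a window, namely Pramel31, Tdrd7 and Zscan4c.

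The core of the pluripotency network was expressed in both lines, and its members did not move together. Of 22 core factors, 20 had a probe and 16 were kept, all detected in both lines; 3 were lower and 2 higher in pESC-B, 31.2% called against the 31% of all genes, with a median difference of -0.01. Nanog, the homeodomain factor that stabilises self-renewal, had 11.91 and 11.77 in pESC-B and 12.91 and 12.86 in fESC (-1.05 ± 0.15, adjusted p = 0.00011). It was lower on both pESC-B arrays, but the call was lost without pESC-B replicate 2. Klf4, which acts downstream of LIF, had 9.27 and 8.76 in pESC-B and 10.61 and 10.44 in fESC (-1.51 ± 0.22). Tbx3, a T-box factor of the same branch, had 9.93 and 9.33 in pESC-B and 11.13 and 11.17 in fESC (-1.52 ± 0.18).

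Higher in pESC-B was Gbx2, a homeobox target of LIF and STAT3 signalling, with 11.73 and 11.66 in pESC-B and 9.83 and 10.10 in fESC (1.73 ± 0.16, adjusted p = 7.4e-06). Esrrb, an orphan nuclear receptor that can stand in for Nanog, had 13.83 and 13.65 in pESC-B and 12.67 and 12.74 in fESC (1.03 ± 0.29). It passed 2-fold narrowly and was not called in 7 of 17 other settings, among them the authors' processed values (adjusted p up to 0.073). Klf5, a close relative of Klf4, was 0.96 ± 0.16 higher and missed 2-fold.

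Pou5f1 (Oct4), the factor without which the state collapses, had 12.59 and 12.27 in pESC-B and 13.33 and 13.37 in fESC. The difference of -0.92 ± 0.16 was under 2-fold, but the gene was called lower in 4 other settings, among them cyclic loess (-1.27) and the fit without pESC-B replicate 1 (-1.08). Its second probe read 12.37 and 12.11 in pESC-B and 12.37 and 12.36 in fESC (-0.12 ± 0.19). Zfp42 (Rex1) at -0.37 ± 0.16, Klf2 at -0.08 ± 0.14, Sall4 at -0.05 ± 0.13, Zfp281 at 0.13 ± 0.13 and Zscan10 at 0.53 ± 0.14 were not called. Nor were Rif1 (-0.75 ± 0.18), Mybl2 (0.08 ± 0.14) and Nr5a2 (0.32 ± 0.13). Myc, Mycn, Nr0b1 and Prdm14 had a probe that was not kept.

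For Sox2, the partner of Pou5f1 on shared enhancers, the answer depended on the probe. The brightest probe had 9.48 and 9.97 in pESC-B and 9.58 and 9.82 in fESC, with overlapping arrays (0.03 ± 0.19). The other had 7.21 and 7.30 in pESC-B and 10.74 and 10.55 in fESC (-3.39 ± 0.17). Averaging the probes gave -1.68, a call lower in pESC-B. Klf4 had 3 kept probes, and the other 2 read 0.04 ± 0.16 and -0.15 ± 0.14, where the brightest was called. Tbx3 also had 3, of which 1 more was called lower (-1.18 ± 0.14) and 1 was not (0.01 ± 0.22). The calls of Klf4 and Tbx3 were lost when the probes were averaged (-0.54 and -0.90).

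**Figure D2:**
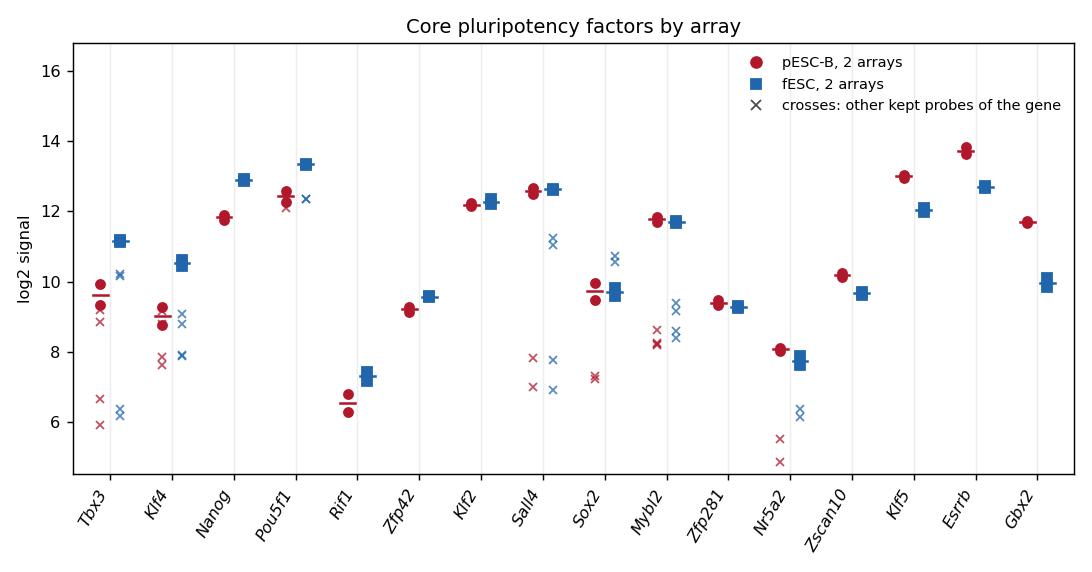
Log2 signal of the 16 kept core pluripotency factors on each pESC-B array (red circles, left) and fESC array (blue squares, right), with bars for the mean of 2 arrays and crosses for the gene's other kept probes. Nanog is lower on both pESC-B arrays and Gbx2 higher, and for Sox2 the circles and squares overlap while the crosses lie near 7.2 in pESC-B and near 10.6 in fESC.

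Of the genes associated with pluripotency without being core factors, 24 were kept, 3 of them through 1 line alone. In pESC-B 7 were lower and none higher (29.2% called, beside 31% of all genes), with a median of -0.41. The number lower was 11 with cyclic loess or median scaling, 13 with no 2-fold minimum, and 5 among genes detected on all 4 arrays. Tdgf1, which encodes Cripto, a co-receptor for NODAL, had 6.74 and 7.06 in pESC-B and 10.63 and 10.42 in fESC (-3.63 ± 0.22), and its second probe gave -4.60 ± 0.17. Jarid2, a partner of the Polycomb complex PRC2, was undetected in pESC-B (4.48 and 4.41) and had 8.31 and 8.28 in fESC, at least 6.83-fold lower. Khdc3, a gene of the oocyte and early embryo, had 5.40 and 6.39 in pESC-B, where 1 of 2 arrays detected it, and 9.38 and 9.40 in fESC. These genes were low on both pESC-B arrays, with no overlap. Eras, an X-linked Ras-like gene of embryonic stem cells, differed by -2.34 ± 0.18, and Tcl1, a coactivator of AKT, by -1.90 ± 0.17 with a second probe at -1.39. Dppa5a, one of the brightest genes of both lines, had 15.16 and 14.85 in pESC-B and 15.14 and 15.04 in fESC, and Utf1 differed by 0.06 ± 0.14.

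Several genes of the primed epiblast and of the first mesoderm and endoderm were detected in pESC-B and in neither fESC array. Of 19 listed, 10 were kept, 5 of them through 1 line alone. In pESC-B 6 were higher and none lower (60% called, beside 31% of all genes), with a median of 1.14. Members kept through 1 line alone were bound to lean towards that line, and nothing is read from this count. Fgf8, a growth factor of gastrulation, had 8.22 and 8.91 in pESC-B and was undetected in fESC (5.22 and 5.39), at least 6.30-fold higher. Fgf5, the usual marker of the primed epiblast, had 7.32 and 8.35 in pESC-B and was undetected in fESC (4.90 and 5.07), at least 3.79-fold higher. Zic2 (at least 1.91-fold) and Mixl1 (at least 1.41-fold), factors of the epiblast and of mesendoderm, were likewise detected in pESC-B alone, and the call of Zic2 was lost with an offset of 50. Dnmt3b, a de novo DNA methyltransferase, had 13.64 and 14.23 in pESC-B and 12.71 and 12.89 in fESC (1.13 ± 0.19), but its second probe read -0.28 and the call was lost in 5 settings. Otx2 overlapped between the lines (-0.34 ± 0.24), and Eomes was not called (-0.63 ± 0.23). Outside the list, Wnt8a, a WNT ligand of the early primitive streak, was higher by both its kept probes (3.11 and 3.53), with 7.86 and 8.38 in pESC-B against 4.86 and 5.15, undetected, in fESC.

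Sp5 and Axin2, targets of WNT signalling, were higher in pESC-B. Sp5, a direct target that feeds back on the pathway, had 10.53 and 10.80 in pESC-B and 6.91 and 6.87 in fESC (3.78 ± 0.22, adjusted p = 2.4e-07). Axin2, a target that also inhibits the pathway, had 9.45 and 9.45 in pESC-B and 7.49 and 7.17 in fESC (2.12 ± 0.14). The arrays of the lines lay far apart for both genes. Among ligands, Wnt3a had 7.78 and 7.09 in pESC-B and was undetected in fESC (5.35 and 5.79), at least 2.86-fold higher. Tcf7l2, a DNA-binding partner of beta-catenin, was at least 3.70-fold higher, and Apc, a scaffold of the destruction complex, was 1.35 ± 0.17 higher. Wnt3 (1.15 ± 0.17) was undetected in fESC too, allowed no bound on its fold, and was lost in 6 settings. Of 27 kept WNT genes, 11 through 1 line alone, 6 were higher and 2 lower in pESC-B, with a median of 0.64. That is 29.6% called, near the 31% of all genes. The 2 lower ones were the co-receptor Lrp6 and the kinase gene Gsk3a. None of the 8 called genes had a second kept probe.

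The Sp5 promoter is shown because it was the highest WNT target. It is chr2:70474673-70474922 of GRCm38.p6, plus strand, 250 bases before the RefSeq start, with the core letters of TCF and LEF sites in capitals (TCAAAG, or CTTTGA on the other strand).
Sp5: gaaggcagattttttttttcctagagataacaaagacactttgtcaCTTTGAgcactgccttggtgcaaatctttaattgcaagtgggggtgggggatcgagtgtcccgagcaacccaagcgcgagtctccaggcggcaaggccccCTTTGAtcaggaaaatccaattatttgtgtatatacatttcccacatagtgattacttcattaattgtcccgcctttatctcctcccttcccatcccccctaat
The letters stood at 204 and 104 bases before the start. They were present in 14% of the 27025 windows and in 3 of the 18 kept WNT genes with a window, namely Sp5, Gsk3a and Gsk3b. A match is a description of letters, not of a bound site.

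The immediate early genes Fos, Fosb and Egr1 and the feedback inhibitors Dusp4 and Spred1 of the FGF and ERK branch were higher in pESC-B. Fos, an AP-1 subunit gene that ERK induces within minutes, had 11.65 and 11.52 in pESC-B and 7.89 and 8.57 in fESC (3.36 ± 0.20). Fosb had 9.47 and 9.49 in pESC-B and 4.93 and 6.34 in fESC, where 1 of 2 arrays detected it (3.84 ± 0.38). Egr1, a zinc finger gene induced with them, had 12.30 and 12.24 in pESC-B and 9.48 and 9.72 in fESC (2.67 ± 0.14). The pESC-B duplicates agreed closely for all 3 genes, while the fESC duplicates of Fosb lay far apart. Zfp36, whose protein destabilises messenger RNA, was 1.88 ± 0.17 higher, and Atf3 at least 1.59-fold, a call lost with an offset of 50.

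Of 14 kept immediate early genes, 4 through 1 line alone, 7 were higher and 1 lower in pESC-B, with a median of 0.88. The share called was 57.1%, beside 31% of all genes. Members kept through 1 line alone lean towards that line by the filter, and nothing is read from this count. The lower one, Ccn1 at -1.15 ± 0.21, had 3 kept probes that ranged from -1.99 to 1.14. In piPS-2F, against the same fESC arrays, Fos differed by 0.67, Fosb by 0.77 and Egr1 by 1.87.

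Dusp4, a phosphatase that switches ERK off in the nucleus, had 9.46 and 9.34 in pESC-B and 6.91 and 7.28 in fESC (2.30 ± 0.16), and its second probe was called higher too. Spred1, an inhibitor of RAS, had 9.73 and 9.79 in pESC-B and 7.59 and 7.73 in fESC (2.10 ± 0.15). Both lay above all fESC arrays. Map2k1, the kinase gene for MEK1, had 5.63 and 5.25 in pESC-B, where 1 of 2 arrays detected it, and 9.45 and 9.30 in fESC (-3.93 ± 0.26). It had 1 kept probe, and piPS-2F read -3.23 against fESC. Fgf4, an embryonic stem cell marker, was lower too, with 7.9 and 8.3 in pESC-B and 9.1 and 9.2 in fESC. The kept probes of Dusp6 conflicted, with 1.56 by the brightest and -0.951 and 1.275 by the others. Of 22 kept FGF and ERK genes, 7 through 1 line alone, 8 were higher and 3 lower, with a median of 0.62. Calls made up 50%, beside 31% of all genes. As members kept through 1 line alone lean towards that line by the filter, nothing is read from this count.

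The promoters of Fos and Fosb are shown as the highest immediate early genes. They are the 250 bases before the RefSeq starts in GRCm38.p6, at chr12:85473640-85473889 on the plus strand and chr7:19310046-19310295 on the minus strand, with the half-site TGACG of cAMP response elements in capitals.
Fos: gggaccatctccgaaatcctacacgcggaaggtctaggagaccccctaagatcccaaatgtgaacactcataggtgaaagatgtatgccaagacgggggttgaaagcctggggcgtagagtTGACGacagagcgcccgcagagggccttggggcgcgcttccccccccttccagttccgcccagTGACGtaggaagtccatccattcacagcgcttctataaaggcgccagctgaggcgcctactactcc
Fosb: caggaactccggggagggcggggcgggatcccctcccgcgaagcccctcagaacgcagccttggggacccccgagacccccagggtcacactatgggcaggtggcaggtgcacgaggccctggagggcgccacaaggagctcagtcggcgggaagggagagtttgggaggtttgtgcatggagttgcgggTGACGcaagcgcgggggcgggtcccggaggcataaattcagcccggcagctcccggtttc
TGACG, searched on both strands, stood at 129 and 66 bases before the start of Fos and at 60 before that of Fosb. It was present in 17.9% of the 27025 windows and in 6 of the 12 kept immediate early genes with a window, 3 of them called higher and 1, Ccn1, called lower.

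The LIF and STAT3 branch sustains mouse embryonic stem cells. Here 2 of 16 kept genes were higher and 2 lower in pESC-B (25% called, beside 31% of all genes), with a median of 0.48. Cish, a feedback inhibitor that STAT factors induce, had 9.01 and 9.04 in pESC-B and 7.09 and 6.61 in fESC (2.17 ± 0.17). Jak2, a receptor-bound kinase gene, was at least 1.71-fold higher. Pim1, a kinase gene that STAT3 induces, had 6.52 and 6.50 in pESC-B and 8.03 and 8.22 in fESC (-1.61 ± 0.14). Jak1, another kinase gene of the receptor, had 5.58 and 4.64 in pESC-B, detected on 1 of 2 arrays, and 6.90 and 7.04 in fESC. Of the STAT-induced genes called in this list, Cish was thus higher and Pim1 lower, each with 1 kept probe. Stat3 was not called (-0.39 ± 0.15), and its 3 probes ranged from -0.39 to 1.65. The feedback inhibitor gene Socs3 differed by 0.29 ± 0.13.

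Id2 and Id4, BMP targets that inhibit differentiation factors, were lower in pESC-B. Id2 had 7.25 and 7.17 in pESC-B and 9.77 and 9.92 in fESC (-2.64 ± 0.21), with a second probe at -2.50, and Id4 had 5.89 and 6.08 in pESC-B and 7.52 and 7.89 in fESC (-1.72 ± 0.18). Id1 (-0.13) and Id3 (0.62) were not called, nor were the ligand gene Bmp4 (0.38) and the signal carrier Smad1 (-0.34). Id2 and Id4 were the 2 calls among 12 kept BMP genes (16.7% called, beside 31% of all genes), with a median of -0.01.

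In the NODAL and TGF-beta branch, 5 of 21 kept genes were higher and 2 lower in pESC-B, with a median of 0.30. Both this median and the 33.3% called lay near those of all genes, 0.21 and 31%. Fst, whose protein binds activin, had 7.80 and 7.87 in pESC-B and 5.98 and 5.43 in fESC (2.13 ± 0.22). It was detected on 1 of 2 fESC arrays. Acvr2b, an activin receptor gene, had 11.93 and 12.11 in pESC-B and 10.70 and 10.86 in fESC (1.24 ± 0.15). Inhbb, which encodes an activin subunit, had 6.86 and 6.74 in pESC-B and 8.58 and 8.57 in fESC (-1.78 ± 0.13). No array of one line overlapped the other for these genes. The ligand Nodal (-0.09 ± 0.15) and its targets Lefty1 (0.27 ± 0.16) and Lefty2 (0.12 ± 0.16) were not called, beside the drop in the co-receptor gene Tdgf1 given above.

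For insulin-like growth factor and PI3K signalling, 7 of 22 kept genes were higher and 3 lower in pESC-B, with a median of 0.80. This made 45.5% called, beside 31% of all genes. Irs2, an adaptor of the insulin receptor, had 8.50 and 8.50 in pESC-B and 6.10 and 6.83 in fESC (2.03 ± 0.23), and Foxo1, a factor that AKT keeps out of the nucleus, was 1.94 ± 0.16 higher. The 3 lower genes were Eras and Tcl1, described above, and Igfbp5, whose duplicates in pESC-B were 5.17 and 6.22 (-2.03 ± 0.41). Of these duplicates, 1 of 2 detected Igfbp5. NOTCH and Hippo genes went 6 higher and 3 lower of 22 kept (40.9% called, beside 31% of all genes), with a median of 0.27. Jag2, a NOTCH ligand, was at least 1.77-fold higher, and Hes6 rose by 1.54 ± 0.17 with all 3 of its probes between 1.29 and 1.89. Hey1 (1.37 ± 0.13) and Notch3 (1.44 ± 0.17) were higher as well, and the Hippo regulator Nf2 was undetected in pESC-B and at least 1.83-fold lower, which was not called with an offset of 50.

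**Figure D3:**
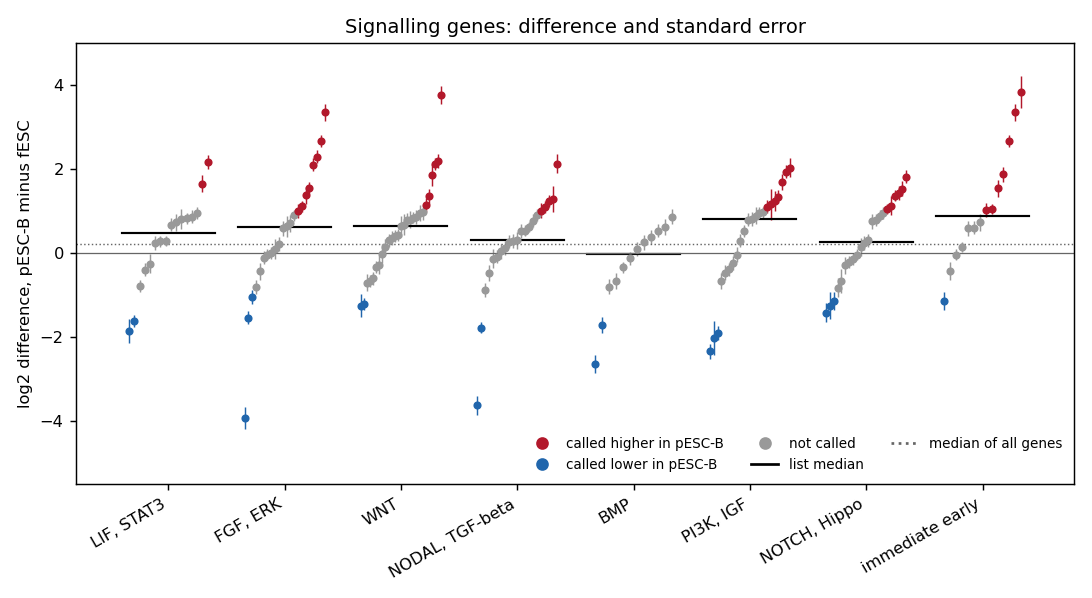
Log2 difference, pESC-B minus fESC, with its standard error for every kept gene of 8 signalling lists; red and blue mark genes called higher and lower in pESC-B, black bars the list medians and the dotted line the median of all genes, 0.21. The highest points are Fosb at 3.84 and Sp5 at 3.78, and the lowest is Map2k1 at -3.93.

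Beyond the lists, the highest genes in pESC-B were Nod1, an innate immune sensor, and Celsr3, a cadherin of axon guidance. Nod1 had 9.54 and 9.55 in pESC-B and was undetected in fESC (5.39 and 5.32), at least 12.4-fold higher, and Celsr3 was at least 11.7-fold higher. Ahcy, which clears the by-product of methylation reactions, had 8.49 and 8.87 in pESC-B and was undetected in fESC, at least 6.80-fold higher. Bahcc1 (at least 8.19-fold), Nrbp2 (at least 4.37-fold) and Tbc1d5 (at least 4.02-fold) were detected in pESC-B alone as well. Each of these genes had 1 kept probe.

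The lowest genes outside the lists were bright in fESC. Nono, an X-linked RNA-binding protein gene, had 5.29 and 5.60 in pESC-B and 10.42 and 10.49 in fESC (-5.01 ± 0.21). In pESC-B 1 of 2 arrays detected Nono. Stmn1, a regulator of microtubules, had 7.95 and 7.38 in pESC-B and 12.40 and 12.52 in fESC (-4.79 ± 0.20). Terf2ip, a telomere protein gene, had 8.07 and 8.18 in pESC-B and 13.04 and 12.90 in fESC (-4.84 ± 0.13), but its second kept probe read -0.77 ± 0.16. Mpv17l, a gene of peroxisomes and mitochondria, read -4.93 ± 0.19 by one probe and -0.46 ± 0.18 by the other. In piPS-2F, on arrays as dim as those of pESC-B, the same brightest probes differed from fESC by -4.83 for Nono, -4.59 for Stmn1, -4.87 for Terf2ip and -4.92 for Mpv17l. Fam25c read -4.93 ± 0.17 in pESC-B and -2.67 in piPS-2F.

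Agreement between probes of one gene was limited. Of 2037 genes with several kept probes, 1307 (64.2%) had all probes on the same side of 0. Of the 495 genes called by their brightest probe that had a second, 215 (43.4%) had every kept probe called the same way, 118 of 290 higher (40.7%) and 97 of 205 lower (47.3%). For 172 (34.7%), another kept probe differed by under 0.5 in the direction called. As the brightest probe chose the genes, a smaller value in the others is no finding. In 38 genes probes were called in opposite directions, and 26 of these were called by their brightest probe. Of all kept probes, taken singly, 32% were called, which is a share of probes and not of genes. The remaining called genes rest on 1 kept probe.

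The genes whose probes agreed at the largest differences were, below 0, Bex1, Snx5, Mest, Snrpn, Tdgf1 and Pramel37. Bex1, an X-linked adaptor gene, had 5.29 and 5.54 in pESC-B, where 1 of 2 arrays detected it, and 10.28 and 10.21 in fESC, with its probes at -5.14 and -4.83. Snx5, a sorting nexin gene, lay at -4.63 and -4.14. Both were nearly as low in piPS-2F against fESC (-4.59 and -4.33). Above 0 they were Wnt8a, Ivns1abp, Plekhg2, Gad1, Epha1 and H13. Ivns1abp, which encodes an actin-binding protein, had 10.78 and 10.75 in pESC-B and 7.62 and 7.46 in fESC, with probes at 3.22 and 2.82. Epha1, an ephrin receptor gene, was undetected in fESC and at least 5.78-fold higher, with probes at 2.85 and 2.45. Gad1, the gene of an enzyme that makes the transmitter GABA, was at least 3.67-fold higher with probes at 3.13 and 2.55, where piPS-2F differed from fESC by 0.10.

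The widest conflict was in Ggct, Dido1, Lypla1, Brd8, Syncrip and Rbm14. In Lypla1, which encodes a depalmitoylating enzyme, 1 probe had 10.27 and 10.30 in pESC-B and 8.93 and 9.37 in fESC (1.13 ± 0.17). Its other probe had 7.14 and 7.22 in pESC-B and 10.07 and 10.08 in fESC (-2.90 ± 0.15). Each probe was tight within each line, and the average of the probes was -0.89, of the opposite sign to the brightest. Syncrip, an RNA-binding protein gene, read 1.25, -1.90 and -2.60, and the average also changed sign (-1.08). Brd8, a bromodomain gene, read -2.64, 1.26 and 1.23. No direction is given for these 6 genes.

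**Figure D4:**
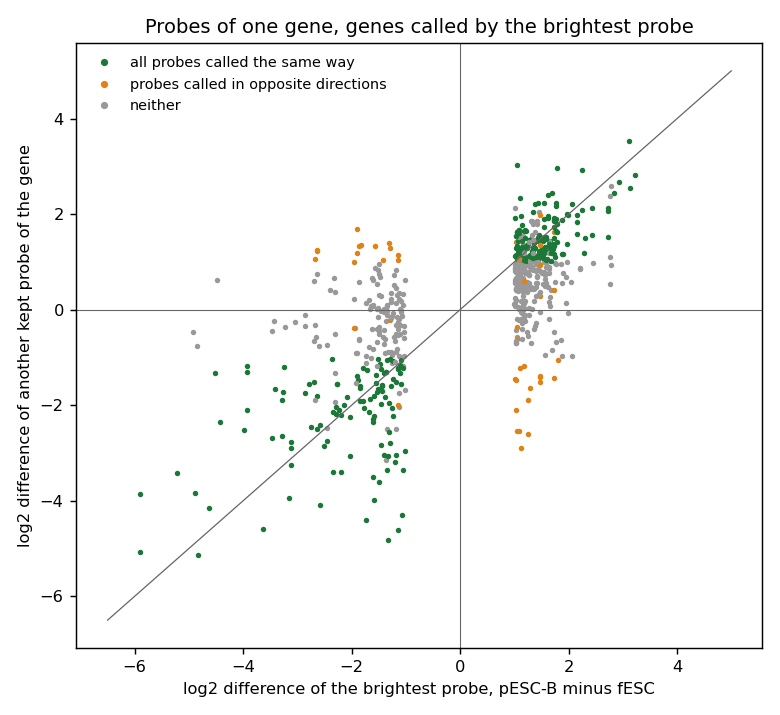
Each of 654 points is a further kept probe of a gene called by its brightest probe, with the difference of the brightest probe on the horizontal axis and its own on the vertical axis (log2, pESC-B minus fESC; the line marks equal values). Green points belong to the 215 genes with all probes called the same way, and orange points to the 26 genes whose brightest probe was called and whose probes were called in opposite directions.

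Imprinted genes bear on the parthenogenetic label. Mest, a paternally expressed gene, was undetected in pESC-B (4.83 and 4.91) and had 10.83 and 10.72 in fESC, at least 38.0-fold lower, and its 3 probes lay between -5.90 and -3.86. Snrpn, paternally expressed from the Prader-Willi region, had 7.89 and 8.05 in pESC-B and 12.86 and 12.86 in fESC (-4.89 ± 0.14). Peg3 (at least 3.69-fold), Peg10 (at least 4.34-fold) and Slc38a4 (-3.70 ± 0.32, detected on 1 of 2 pESC-B arrays) were lower too. Of 11 kept paternally expressed genes, 4 through 1 line alone, 8 were lower and none higher, with a median of -2.08. Their share called was 72.7%, beside 31% of all genes. The 4, Mest, Peg3, Peg10 and Slc38a4, were kept through fESC alone. They lean lower by the filter, and nothing is read from this count. Grb10, expressed from the maternal copy in most tissues, had 12.50 and 12.17 in pESC-B and 8.99 and 9.07 in fESC (3.30 ± 0.22). H13 rose by 2.24 ± 0.16 with all 3 probes between 2.09 and 2.93, Cdkn1c, a cell cycle inhibitor, by 2.21 ± 0.20, and Phlda2, a restrainer of placental growth, by 1.86 ± 0.14. Of 15 kept maternally expressed genes, 4 through 1 line alone, 8 were higher and 2 lower, with a median of 1.06. For these 66.7% were called, beside the same 31%, and for the same filter nothing is read from the count. The lower ones were Ascl2, lost in 6 settings, and Ube3a at -2.65 ± 0.21, whose second probe read -0.56. The difference between the embryonic and the neural pair of lines was tested for the 26 kept imprinted genes, and 16 passed at 2-fold, against 30.9% of all genes. The 16 include genes undetected in 1 or both lines of a pair, for which the size of the difference was not measured. The neural pair alone, pNSC against fNSC, had 8.85% of genes called. These genes were kept by detection in pESC-B or fESC, not in the neural lines, so this share is not set against that of the embryonic pair.

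X-linked genes were called lower in pESC-B more often than higher. Of 275 kept X-linked genes, 87 were lower (31.6%) and 17 higher (6.18%), with a median of -0.35. Of 7514 autosomal genes, 1035 were lower (13.8%) and 1275 higher (17%), with a median of 0.23. The medians of single autosomes ran from 0.11 to 0.34 and their shares of lower genes from 9.89% to 18.5%. Along the X chromosome the medians were -0.33, -0.23, -0.71, -0.29 and -0.34 in 5 successive blocks of 55 genes. Of 12 lower X-linked genes with several probes, 7 had every probe called lower. In piPS-2F against the same fESC arrays, the median of the X-linked genes was -0.03, beside 0.18 for autosomal genes, and for pNSC against fNSC it was -0.04, beside 0.02. Xist, the RNA that coats an inactive X chromosome, had 6.09 and 6.09 in pESC-B and was undetected in fESC (5.03 and 5.54). This difference of 0.80 ± 0.29 was not called.

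**Figure D5:**
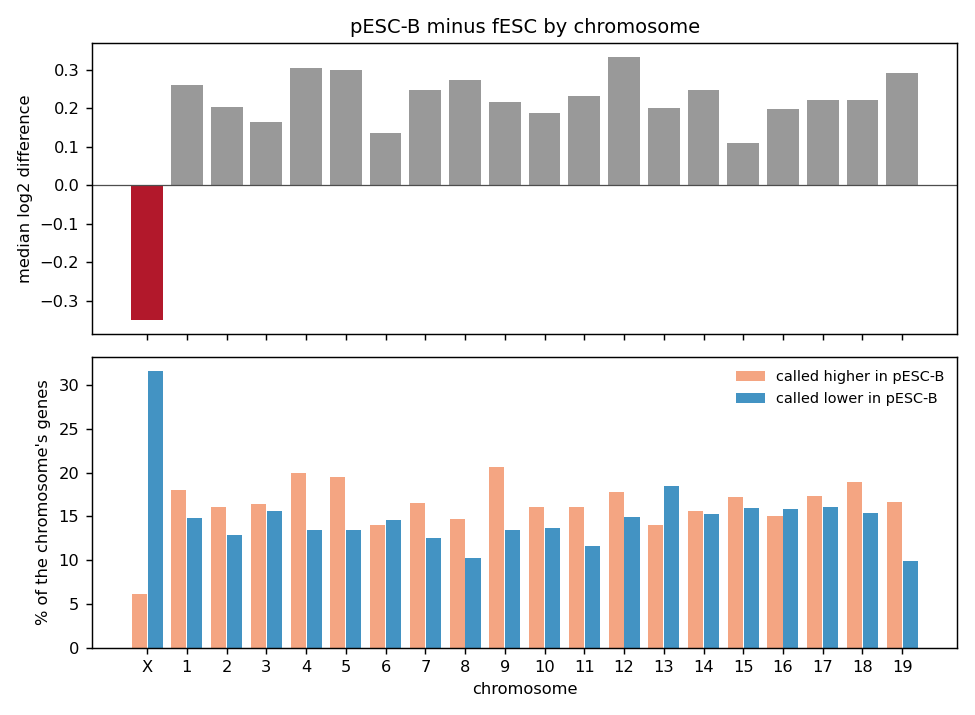
Median log2 difference, pESC-B minus fESC (top), and the percentage of genes called higher and lower in pESC-B (bottom), for the X chromosome (red, left) and each autosome. The X chromosome alone has a median below 0 (-0.35) and 31.6% of its genes called lower.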

How the data were processed

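Per the labels' protocols, column-purified and DNase-treated RNA was amplified linearly and labelled with biotin. The authors deposited a summary intensity and a detection p-value for each probe and array, and a second table of processed log2 values, used as an alternative. The submitters' processing notes name BeadStudio 3.2, RMA and lumi. Sources used here give no genome build for the probes, and promoter windows came from RefSeq GRCm38.p6.

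Deposited intensities of all 10 arrays were background-corrected by normexp from the detection p-values with an offset of 16, quantile normalized and put on the log2 scale (neqc, limma 3.58.1, R 4.3.3). One model with a mean for each of 5 groups was fitted to all 10 arrays (lmFit, eBayes), which pools the spread over the groups and leaves 5 residual degrees of freedom. P-values were Benjamini-Hochberg adjusted over all 11263 kept probes. Errors after ± are standard errors of a difference of 2 against 2 arrays. Of 25697 probes, 23978 had 1 symbol in the platform annotation, which can be old, and 1719 had none. The number of arrays limits the precision. Fits were tested on simulated data.

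Members and gene lists were chosen with earlier results of these data known. Genes were named by a rule: the 12 highest and 12 lowest called genes without overlap; up to 5 called members of each list by size; every tested core and two-cell-like gene; and 6 concordant genes in each direction and 6 opposed ones by their probes. Other members are named to complete a list, after their values were seen. Alternatives changed the background correction, offset, normalization, filter, probe summary, arrays and source of values. Same-numbered replicates are not stated to share a batch. The deviations of same-numbered pESC-B and fESC arrays correlated at 0.12, and those of other group pairs at -0.12 to 0.05.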

Additional observations from a re-analysis of the deposited data

Results flagged for a closer look

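For 8 named imprinted genes the interaction term of the limma fit over all genes passed when the embryonic pair (pESC-B minus fESC) was set against the neural pair (pNSC minus fNSC). Most of these values rest on lines in which the gene was not detected, and for those unequal folds are not shown. The interaction, embryonic minus neural difference on the log2 scale, was -3.64 for Slc38a4 (adjusted p = 0.00012), where the neural difference was -0.06 and 1 of 2 arrays of each neural line detected the gene. It was -2.27 for Ube3a (adjusted p = 0.00015), with a neural difference of -0.39, and -1.52 for Peg10, with -1.27 in the neural pair.

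For Ascl2 it was -1.15, for Phlda2 1.81 (adjusted p = 4.9e-05) and for Grb10 3.02 (adjusted p = 3.6e-05). These 3 genes were detected in neither neural line, so the neural pair gives no measured difference for them. For Mest it was 2.47, with a neural difference of -8.37, and for Snrpn 1.16 (adjusted p = 0.00098), with -6.05. Mest, Snrpn and Peg10 were undetected in pNSC, and Mest and Peg10 in pESC-B as well, so that the fitted differences there are no measured folds. The levels in the female lines also differed for Mest, with a mean of 12.81 in fNSC and 10.77 in fESC.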

How the results depend on the processing

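Calls went from 2415 genes to 1531 of 6311 when a probe had to be detected on all 4 arrays, and to 5317 with no 2-fold minimum. Calls higher in pESC-B numbered 1293, and 823 with an offset of 50, 802 with detection on all 4 arrays, 3217 with no 2-fold minimum and 834 with differences centred on their median. Calls lower in pESC-B numbered 1122, and 729 with detection on all 4 arrays and 2100 with no 2-fold minimum. X-linked genes called lower numbered 87, and 55 and 132 under these same settings. Two-cell-like genes called lower numbered 16, and 1 with detection on all 4 arrays. Genes with concordant probes numbered 215, and 122 with an offset of 50, 113 with detection on all 4 arrays and 719 with no 2-fold minimum. The interaction of imprinted genes passed in 16, and in 10 of 18 tested with detection on all 4 arrays. Fewer genes are tested under that filter; the cause of the other changes was not tested. Leaving out 1 array at a time gave 2391 to 2472 calls, 212 to 244 concordant genes, 85 to 89 lower X-linked genes and 16 to 18 interactions. Under the mean of a gene's kept probes, the sign turned for Lypla1 (-0.886), Sox2 (-1.681), Syncrip (-1.082) and Trp53inp1 (-0.173), each called before or after. It also turned for Dido1 (-0.136), Nr5a2 (-0.370), Mybl2 (-0.348) and Sall4 (0.475), which were called neither way. The share of calls higher in pESC-B was 53.5%, and 45.1% with cyclic loess and 43.8% with median scaling. With the replicate number as a block the count was 2415, and no call of a named gene changed. Of the 124 named genes called, 112 to 124 kept the call in each setting that tested all of them. Centring, and the alternatives for concordance and interaction, were chosen after seeing the data. Probes near background limit what can be said of genes absent from one line.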

Other observations

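Genes of the germline, many of them silenced by DNA methylation elsewhere in the body, included several that were lower in pESC-B. Of 40 listed, 19 were kept, 6 through 1 line alone; 13 were lower and 1 was higher (73.7% called, beside 31% of all genes), with a median of -1.63 beside 0.21 over all genes. Members kept through 1 line alone lean towards that line by the filter, and nothing is read from the count. Stra8, which opens meiosis, was undetected in pESC-B (4.46 and 4.47) and had 8.72 and 8.78 in fESC, at least 9.36-fold lower. Xlr4a, an X-linked gene of a family with near-identical copies, had 8.78 and 8.77 in pESC-B and 12.58 and 12.58 in fESC, and the related Xlr4c was at least 10.1-fold lower. Tuba3a, a testis tubulin gene, was lower by all 4 of its probes, from -3.25 to -2.76. Dazl, a germ cell RNA-binding protein gene, differed by -2.41 ± 0.19. In piPS-2F against the same fESC arrays Stra8 differed by -4.19 and Xlr4a by -0.38. Dnd1, another germ cell gene, was higher in pESC-B by 1.41 ± 0.22.

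Of 25 kept genes of the ATF4 stress response, 8 were higher and 1 was lower (36% called, near the 31% of all genes), with a median of 0.53. Vldlr, a lipoprotein receptor gene, had 8.66 and 8.60 in pESC-B and 6.89 and 6.82 in fESC, and its 3 probes lay between 1.64 and 1.91. Sesn2, a stress-induced inhibitor of mTOR signalling, was higher by both of its probes (1.21 and 1.29). Slc3a2, which encodes the heavy chain partner of amino acid transporters, had 6.57 and 6.05 in pESC-B and 9.08 and 9.21 in fESC, by its 1 kept probe, while its partner Slc7a5 was higher by 1.17 ± 0.15. Among p53 targets and cell cycle inhibitors, 7 of 20 kept were higher and 2 lower (45% called, beside 31%). Mdm2, the p53 ligase gene, was higher by 1.05 ± 0.13, and the inhibitors Cdkn2a and Cdkn2b differed by -1.62 ± 0.15 and -1.12 ± 0.13. The second kept probe of Cdkn2a read -0.41 ± 0.15 and was not called. Trp53inp1 was called in opposite directions by its brightest probe (higher) and its other (-1.64).

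The remaining lists were small, and their shares are to be read beside the 31% of all genes called. Of the epithelial genes, 3 of 11 kept were higher and 1 was lower (36.4%). F11r and Cldn6, of tight junctions, differed by 1.58 ± 0.13 and 1.43 ± 0.14, and Krt18, a keratin gene, by -2.74 ± 0.14. Krt18 was detected on 1 of 2 pESC-B arrays. Of the feeder fibroblast genes, none of 12 kept was higher and 2 were lower (16.7%), Col3a1 (at least 2.94-fold) and Acta2 (-1.12 ± 0.15). Of the trophectoderm genes, 1 of 9 kept was higher (Cdx2) and 3 were lower (Krt18, Gata3 and Ascl2), 44.4% called. The call of Cdx2 was lost in 7 settings, among them cyclic loess, median scaling and the fits without pESC-B replicate 2 and without fESC replicate 1. Gata3 lost its call with an offset of 50, and Ascl2 in 6 settings. Of the extraembryonic endoderm genes, 1 of 10 kept was higher (Lama1) and 1 lower (Lamb1), 20% called. The list of DNA methylation writers and erasers also holds Ehmt1, a histone methyltransferase gene. Of its 13 kept genes, 2 were higher (Dnmt3b and Ehmt1) and none lower, 15.4% called. The second probe of Dnmt3b read -0.28 and its call was lost in 5 settings. All 3 probes of Ehmt1 were called higher, but the call of its brightest was lost in 2 settings.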
